A study of Homo sapiens with 2 samples.

Results

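The MYOCD locus was examined as the MYOCD gene on chromosome 17, positions 12569207 to 12672266 on the plus strand in GRCh37, with 100 kb on each side. Its members are all peak summits between positions 12469207 and 12772266, chosen by position alone, with the end coordinate of each deposited interval taken as the summit. They number 15 of 105637 in the list, with 6 inside the gene, 4 in the upstream flank and 5 in the downstream flank. The other 6960 summits of chromosome 17 served as the comparison. The list is from chromatin immunoprecipitation followed by sequencing of A549, a human lung adenocarcinoma line. In these cells MYOCD was stably overexpressed from the lentiviral vector pWPI. Chromatin of this line was pulled down with anti-Myocardin and, as the control, with IgG, 1 library each with no replicate. The overexpression is shared by both libraries, and cells without the vector were not analysed here. The labels do not say whether the stable line is 1 clone.

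MYOCD encodes Myocardin, a coactivator that switches on the genes of cardiac and smooth muscle. Myocardin does not bind DNA strongly on its own. It is recruited by the serum response factor (SRF), which sits on short A/T-rich elements called CArG boxes in front of contractile genes such as those of smooth muscle actin and calponin. Expression of MYOCD is largely restricted to cardiac and smooth muscle, and lung epithelium is not a tissue known for it. The cells studied here therefore carry MYOCD sequence in 2 forms, the endogenous gene with its introns and promoter and the cDNA of the vector, which lacks introns. Reads from the cDNA would map to exons of the endogenous gene. Because of this, the number, score and spacing of summits inside the gene were set against the flanks and the rest of chromosome 17. Exon positions in GRCh37 were not used here, so no summit was assigned to an exon or an intron.

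The highest summit of the locus stood at the start of MYOCD and outside the gene body. It lay at position 12569041, 166 bp before the annotated gene start, with a peak score of 39.5. The score is the authors' own value for each peak and has no stated unit, so it serves only to order summits within the list. The summit ranked 25 of the 6975 on chromosome 17 and 340 of the whole list. Of the rest of chromosome 17, 24 summits scored at least as high (0.345%). The highest score inside the gene was 16.6, and the median of the rest of the chromosome was 8.67.

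Proximity to the gene start was set against how much of the chromosome lies near any summit. Positions within 166 bp of a summit made up 2.98% of the covered sequence of the rest of chromosome 17, and positions within 166 bp of a summit scoring at least 39.5 made up 0.0103%. Covered sequence runs across all summits of the chromosome, leaving out stretches of at least 1 Mb that hold none. At the other end of the gene, the nearest summit lay 1381 bp past the annotated end, at position 12673647, with a score of 5.64. Of the covered sequence, 22.3% lay within 1381 bp of a summit. The summit at the gene end was thus lower in score and farther from its gene edge than the one at the gene start. The distances and the score used as limits are those of the locus's own summits. These shares describe the list and are not probabilities of such a summit at a gene start. Gene starts elsewhere were not examined.

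The summit at the gene start stood alone. The previous summit lay 71.8 kb upstream and the next one 33.2 kb downstream, inside the gene. On the rest of chromosome 17, 71 summits (1.02%) had no other summit within 33.2 kb. Among the 24 of these other summits that scored as high or higher, 0 were as isolated. With 1.02% as isolated over all scores, 0 is the likely count for any 24 summits. Both limits are also the own values of the summit at the gene start, so the 0 does not set it apart. The nearest neighbour of those 24 lay at a median of 7.28 kb and at most 27.7 kb. The empty stretch of 71.8 kb before the MYOCD start was matched or exceeded by 57 of the 6972 other distances between adjacent summits of the chromosome (0.818%, with stretches of at least 1 Mb left out).

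**Figure D1:**
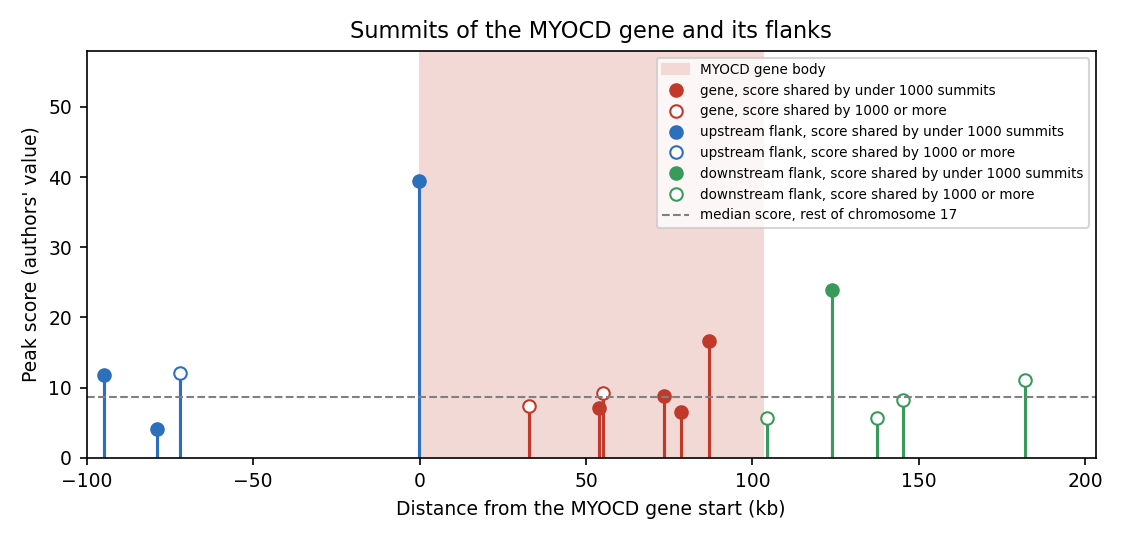
Peak score (authors' value) of each of the 15 summits against distance from the MYOCD gene start in kb, with the gene body shaded and the dashed line at the median score of the rest of chromosome 17 (8.67). The summit at the gene start reaches 39.5 and the 6 summits of the gene body lie beyond its first 33.0 kb, with scores between 6.55 and 16.6; open circles mark scores that at least 1000 summits of the list share.

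Inside the gene, 6 summits were listed, all beyond the first 33.0 kb from the start. They are given in order along the gene. The first, at position 12602206, scored 7.37. A close pair followed at 12623032 and 12624254, 1.22 kb apart, with scores of 7.09 and 9.22. The pair lies about midway along the gene and holds the shortest distance of the locus. The next summits, at 12642633 and 12647649, scored 8.76 and 6.55. The last, at 12656095, scored 16.6, the highest inside the gene, and lay 16.2 kb before the gene end. It ranked 810 on chromosome 17, and 11.6% of the summits on the rest of the chromosome scored at least as high. The lowest of the gene body was that at 12647649.

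Scores inside the gene were in the middle of those of the chromosome. The median was 8.07 in the gene (range 6.55 to 16.6, n = 6 summits), 11.2 in both flanks together (4.04 to 39.5, n = 9) and 8.67 on the rest of chromosome 17 (2.59 to 185). The 3 ranges overlap, and 5 of the 6 gene summits scored 9.22 or less. Of the gene's summits 1 of 6 was in the top 25% of scores of the list, at or above 12.16, which is 16.7% (exact Clopper-Pearson 95% interval 0.421% to 64.1%). The share was 33.3% in the flanks (7.49% to 70.1%) and 26% on the rest of chromosome 17 (24.96% to 27.0%). Summits in the top 10% numbered 0 of 6 in the gene, 2 of 9 in the flanks and 719 of 6960 (10.3%) on the rest of the chromosome. The interval of the gene includes the share of the chromosome, and with 6 summits a lower share was not detectable. The count of 0 in the top 10% has an upper exact bound of 45.9%.

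The gene body held fewer summits per Mb than the chromosome, but the counting interval of the ratio includes 1. Density was 58.2 summits per Mb in the gene (exact Poisson 95% interval 21.4 to 127) and 45.0 in both flanks (20.6 to 85.4). It was 89.4 on the rest of chromosome 17 (87.3 to 91.5). The ratio of gene to flanks was 1.29 (exact conditional 95% interval 0.379 to 4.07), and that of gene to rest of chromosome was 0.651 (0.239 to 1.42). In the top 25% of scores the ratio of gene to flanks turned to 0.647 (0.0123 to 8.06), from 1 summit in the gene and 3 in the flanks. All intervals cover counting error only, and they are too narrow where summits gather in some regions and not in others. A crowding of summits in the gene body was thus not seen, and an excess of up to 4.07 times over the flanks lies within the interval. Whether a smaller number of summits sits on exons was not analysed here. Both libraries came from cells with the vector, and the control of the peak calling is not given. Reads from the cDNA were therefore not tested by these counts.

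The gene with its flanks was sparser than the chromosome. It held 49.5 summits per Mb (27.7 to 81.6), 0.554 times the rest of chromosome 17 (0.310 to 0.914). Within the flanks the upstream side held 40 per Mb and the downstream side 50, a ratio of 0.800 (0.159 to 3.72). Both flanks together held 0.503 times the density of the rest of chromosome 17 (0.230 to 0.956), a ratio not tried under other settings. The interval of the locus against the chromosome excludes 1, but it reached 1.02 with summits within 2 kb merged and 1.07 against the 5 Mb on each side. Sparser stretches were present elsewhere on chromosome 17 but were a minority. The chromosome was divided into stretches of the same length laid out from the start of the locus. Of 255 others, 83.1% held at least 15 summits and 43 held fewer, with a median of 29 and a range of 2 to 52. The region as a whole was below the chromosome, with 54 summits in the 1 Mb bin from 12000001 to 13000000, against a median of 94 over the 80 bins of the chromosome that hold a summit. Fewer summits were found in 18 of those bins. Over 5 Mb on each side of the locus the density was 76.6 per Mb.

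**Figure D2:**
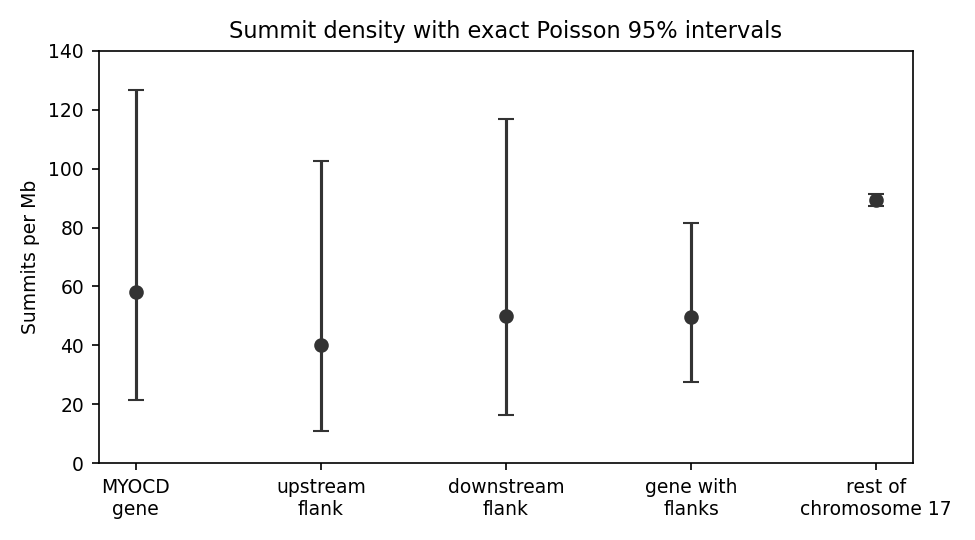
Summits per Mb in the MYOCD gene, each flank, the gene with flanks and the rest of chromosome 17, with exact Poisson 95% intervals for counting error. The gene (58.2) and both flanks (40 and 50) lie below the rest of the chromosome (89.4), and the intervals of the gene and of each flank include that value. The interval of the gene with flanks (27.7 to 81.6) does not include it.

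The same view at the length of the gene itself placed MYOCD in the lower part of the chromosome but well inside its spread. Among 755 other stretches of 103.06 kb, 76% held at least 6 summits, 47 held exactly 6 and 181 held fewer. Their median was 9, with quartiles of 6 and 13. The highest score inside the gene, 16.6, was also ordinary for a stretch of this length. In 62.1% of the other stretches the highest score was at least as high, and the median of these highest scores was 18.8. A score of 39.5 or more, as before the gene start, was present in 18 of the 754 stretches that hold neither the gene nor that summit (2.39%).

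**Figure D3:**
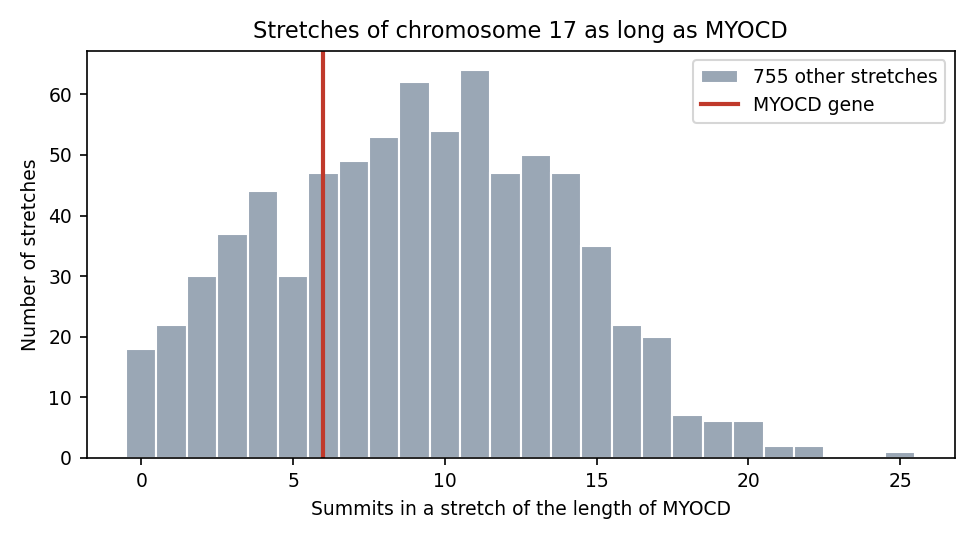
Histogram of summits per stretch for 755 stretches of chromosome 17 as long as MYOCD (103.06 kb), with the number of summits on the x axis and of stretches on the y axis. The line marks MYOCD with 6 summits, at the lower quartile of the stretches, whose median is 9.

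Between summits that both lie inside the gene, the median spacing was near that of the chromosome but depended on 1 close pair. That of the flanks was wider. Adjacent summits inside the gene were 8.45 kb apart at the median (range 1.22 to 20.8 kb, 5 distances). With summits within 2 kb merged, the median in the gene was 14.0 kb (4 distances). The median of the chromosome after merging is not given here. The distances across the gene's edges, 33.2 kb at the start and 17.6 kb at the end, are left out of these. Both are longer than that median, so leaving them out makes the spacing of the gene look closer. In the flanks the median was 15.7 kb (7.05 to 71.8 kb, 7 distances), and on the rest of chromosome 17 it was 7.55 kb (0.334 to 333 kb, 6957 distances). Only the pair at 12623032 and 12624254 was under 2 kb apart, which is 1 of 14 distances of the locus, while 15.1% of distances on the rest of the chromosome were that short. No distance of the locus fell between 2 and 5 kb, and the other 13 were longer. Distances over 10 kb made up 9 of 14 in the locus and 37.0% on the rest of the chromosome. With 5 distances inside the gene, a difference in spacing from the chromosome was not detectable.

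In the upstream flank the summits other than that at the gene start lay far from the gene. They stood at positions 12474548, 12490237 and 12497290, with scores of 11.8, 4.04 and 12.2. The value of 4.04 is the lowest of the locus, and 97.1% of summits on the rest of the chromosome scored at least as high. All 3 lay at least 71917 bp before the gene start, so the stretch directly upstream of the start-site summit was empty.

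In the downstream flank the highest summit lay at position 12693017, 20.8 kb past the gene end, with a score of 24.0. It is the second highest of the locus, ranked 252 on chromosome 17, and 3.59% of the summits on the rest of the chromosome scored at least as high. The others of this flank, at 12673647, 12706468, 12714526 and 12751012, scored 5.64, 5.64, 8.28 and 11.2. Both scores of 5.64 are the same value to the last deposited digit. In a RefSeq gene table of GRCh38.p14, used for names and order only, the nearest protein-coding genes on this side are ARHGAP44 and then ELAC2, a tRNA processing enzyme. On the other side they are MAP2K4, a kinase of the JNK pathway, and then ZNF18, a zinc-finger gene. That table also places the noncoding genes MYOCD-AS1 and ARHGAP44-AS1 across parts of MYOCD. The summits carry no transcript strand, so summits of MYOCD and of these overlapping genes cannot be told apart. Positions of the neighbouring genes in GRCh37 were not used, so whether a summit of either flank lies in or near them was not examined.

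**Figure D4:**
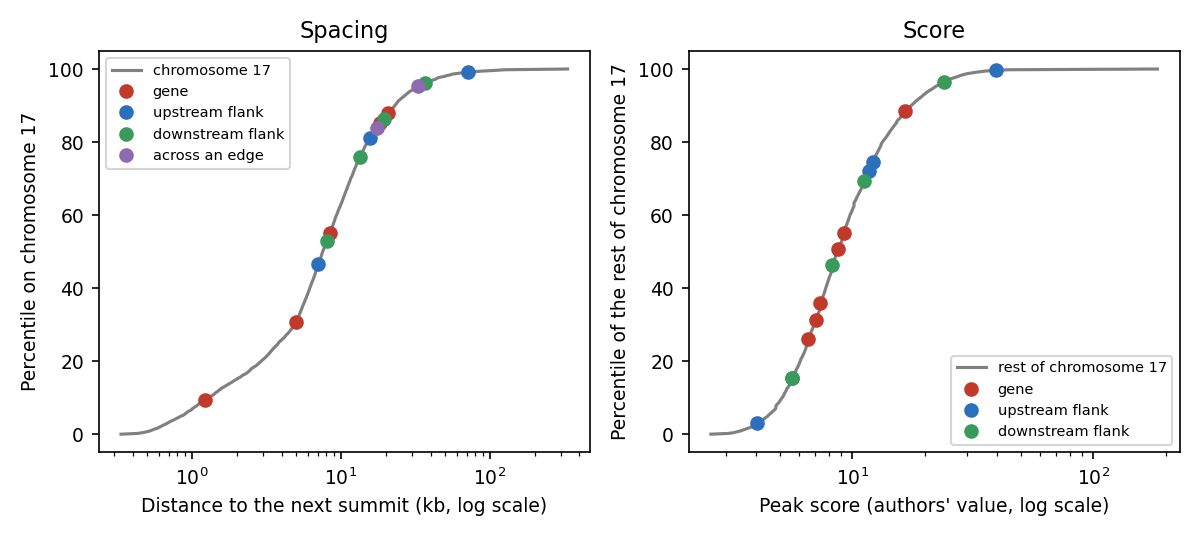
Left, distance from each summit of the locus to the next in kb (log scale) against its percentile among adjacent distances of chromosome 17; right, peak score (log scale) against its percentile on the rest of chromosome 17. Grey lines give the chromosome and colours the gene, the flanks and distances across a gene edge; the 71.8 kb before the start-site summit and its score of 39.5 lie at the top of both curves.

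Many summits of the locus carried a score that recurs throughout the list. A value shared to the last deposited digit by at least 1000 summits was found for 7 of the 15 (46.7%, exact 95% interval 21.3% to 73.4%), against 612 of 6960 on the rest of chromosome 17 (8.79%). These were 2 of 6 inside the gene, at 12602206 and 12624254, and 5 of 9 in the flanks. In the whole list, 10 such values, between 4.82 and 13.2, held 25.2% of summits. The interval of the locus includes this share, and the share of the rest of chromosome 17 lies below it. The locus was thus not told apart from the whole list by this measure. The score at 12602206 was shared by 4026 summits and that at 12624254 by 3234. The scores of 39.5 and 24.0 at the highest summits were each held by 2 summits of the list, and the 16.6 inside the gene by 9. These scores lie above 13.2, the highest of the recurring values, so they could not be among them. With the nearest other summit under 5 kb away, the share was 1 of 2 in the locus and 3.29% on the rest of the chromosome. With it at least 5 kb away, the share was 6 of 13 in the locus and 14.9% on the rest of the chromosome. It was 3 of 6 in the locus and 24.7% on the rest of the chromosome with the nearest at least 10 kb away. On the rest of the chromosome recurring scores were thus more frequent where summits lay farther apart, while the few summits of the locus show no such order. The part of spacing in the difference between the locus and the rest of chromosome 17 was not tested. This measure was chosen after the values were seen.

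Of the summits next to the limits of the locus, the last one excluded upstream lay at 12456825, 12.4 kb outside, with a score of 6.49, and the first one included lay 5.34 kb inside. On the downstream side the last one included lay 21.3 kb inside, and the first one excluded lay at 12780948, 8.68 kb outside, with a score of 9.22. The list gives no value for either antibody at any summit. Signal from the anti-Myocardin precipitation and from IgG therefore cannot be told apart at the start of MYOCD or inside it.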

How the data were processed

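The authors deposited 1 list of peaks giving a position, a strand and a peak score each, per the file headers. All intervals are 1 bp wide and no column is tied to a sample. MACS, a peak caller, appears in the name of the list. The sources used here give neither its version, threshold and control nor the aligner and the depth. CASAVA 1.4, mm9 and GRCh38.p12 are named in the submitters' processing notes. On GRCh38, 1093 summits lie past a chromosome end, on mm9 13627, on GRCh37 0 (chromosome lengths from GenomeInfoDb 1.38.1). MYOCD has the same length, 103060 bp, in the RefSeq table of GRCh38.p14.

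Counts carry exact Poisson 95% intervals, shares exact Clopper-Pearson and density ratios exact conditional intervals, from scipy 1.17.1. They cover counting error only, and amplified reads without molecular identifiers are not independent molecules. The interval of the density ratio was checked on simulated counts of even density, which do not hold the gathering of summits in some regions. The functions for medians and empty stretches were checked on small fixed inputs. With 1 list no test between samples was possible, and no p is given. The summits named by position follow from a rule: the highest and lowest scores and those nearest the gene's ends, with all other members added after their values were seen. The members and measures were chosen with earlier results of these data known. Alternatives were other flank widths, score thresholds, merging within 2 kb, other tilings and other backgrounds. The assignment of summits to exons was planned and not done, since a GRCh37 annotation was not used here.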

Additional observations from a re-analysis of the deposited data

How the results depend on the processing

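Of 24 alternatives over 8 results, 22 stayed within the 95% interval of the reported value (for the medians with few values, within the range), and 7 of the 24 were chosen after seeing the data. Most of these intervals are wide because the gene and its flanks hold few summits. Staying within them was therefore likely beforehand and says little about stability. The share of gene summits among top scores was 0% with the top 10% in place of the top 25%; the stricter threshold itself lowers the share. Of the other stretches of chromosome 17, 87.3% held at least as many summits as the gene with counting limited to the top 25% of scores, where the gene holds 1. The ratio of gene to flanks ran from 0.647 (top 25% of scores) to 1.67 (1 kb before the gene start counted with the gene), so its direction turned with the score threshold; its interval always included 1. The ratio of gene with flanks to the rest of chromosome 17 ran from 0.554 to 0.646, and its interval reached 1.02 with summits merged within 2 kb, 1.07 against 5 Mb on each side and 1.46 in the top 25% of scores. The median spacing in the gene was 14.0 kb with merged summits; in the top 25% of scores the gene holds 1 summit and has no spacing. No paired analysis was possible, since the list gives no value for either antibody. Depth cannot be given, since no read counts were used here.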
